A study of Mus musculus with 22 samples.

Results

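The genes described here encode the nuclear part of the mitochondrial respiratory chain and of ATP synthase. The set was proposed with earlier results of these data known, and its members follow from their symbols: every gene whose name starts with Nduf, Uqcr, Atp5 or Sdh, the cytochrome c oxidase subunit genes from Cox4 to Cox8, and Cyc1 and Cycs, without the assembly factors and without Cox7a1 and Cox8b. Of the 45101 probe sets on the array, 172 carried 1 such symbol and stood for 82 genes. A filter on low values kept 149 of these probe sets and 76 of the genes: 33 of 36 genes of complex I, all 4 of complex II, all 9 of complex III, cytochrome c, 12 of 15 of complex IV and all 17 of complex V. Each gene is represented by its brightest tested probe set.

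Electrons from NADH enter the chain at complex I and those from succinate at complex II. Both pass through ubiquinone to complex III, through cytochrome c to complex IV and on to oxygen. The protons moved on the way drive ATP synthase, called complex V. Tissue rich in mitochondria, such as brown fat and striated muscle, carries high levels of these transcripts, and in rodents brown fat surrounds the thoracic aorta.

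The arrays measured RNA of whole aortas from ovariectomised female mice labelled C57BL/6, aged 2.5 to 4.5 months. The mice lacked estrogen receptor alpha (ERaKO), lacked estrogen receptor beta (ERbKO) or were wild-type littermates (WT), and the alleles are not given in the sources used here. Each mouse carried a pellet of 17beta-estradiol (E2) or of placebo for 7 to 8 days. The 6 groups held 3 ERaKO E2, 3 ERaKO placebo, 3 ERbKO E2, 3 ERbKO placebo, 5 WT E2 and 5 WT placebo mice, with 5 ug of RNA from 1 aorta on each of the 22 arrays and no pooling. All mice, controls included, had no ovaries, so placebo stands for a state of little estrogen.

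Values are GCRMA signals on the log2 scale, where a difference of 1 is a doubling, and a signal is not comparable between probe sets. How precise a value can be depends on how many arrays a group has and on how much a gene varies between mice. Esr1, which encodes estrogen receptor alpha, had signals of 3.48 to 5.43 in ERaKO E2 and 4.21 to 5.50 in ERaKO placebo aortas, against 8.35 to 9.01 in ERbKO and 8.04 to 9.17 in WT aortas. The probe set for Esr2, which encodes estrogen receptor beta, was at 2.34 to 2.72 on every array, so it checks nothing about the ERbKO label. Myh11, the myosin of smooth muscle, was at 12.19 to 13.77 on the 22 arrays, but the brown fat uncoupler Ucp1 was also bright, at 11.35 to 14.07, and the fat hormone Adipoq was at 10.75 to 13.08. WT placebo 4 stood apart: it was the highest of the 22 arrays for 57 of the 76 genes, and its smooth muscle marker mean of 10.70 was the lowest. WT placebo 1 alone carried the striated muscle actin Acta1 at 10.09, against at most 6.67 on the other arrays.

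The 300-base promoter windows of 5 of these genes are shown to set genes that were called beside genes that were not: 3 with lower signal under E2 in every pair of mice (Ndufb2, Uqcr11, Atp5j2) and 2 that encode the same ATP synthase c subunit and passed no test (Atp5g2 and Atp5g1). Each runs 5′ to 3′ on the gene's own strand, from RefSeq on GRCm38.p6, and ends 50 bases after the start site. Capitals mark a match to a binding motif. In the order of the windows these are AAGGTCA (estrogen-related receptor alpha), CCGGAAG (ETS factors such as GABPA), AAGATGGCG (YY1) and the palindromic NRF1 motif, and the last window holds none of them.
Ndufb2, chr6:39592315-39592614, plus strand: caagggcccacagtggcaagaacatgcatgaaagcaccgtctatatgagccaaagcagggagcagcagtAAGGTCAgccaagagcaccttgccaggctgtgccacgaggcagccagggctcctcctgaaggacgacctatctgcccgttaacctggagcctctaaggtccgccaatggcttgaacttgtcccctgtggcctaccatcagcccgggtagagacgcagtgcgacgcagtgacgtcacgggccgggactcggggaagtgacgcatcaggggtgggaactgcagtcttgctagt
Uqcr11, chr10:80406772-80407071, minus strand: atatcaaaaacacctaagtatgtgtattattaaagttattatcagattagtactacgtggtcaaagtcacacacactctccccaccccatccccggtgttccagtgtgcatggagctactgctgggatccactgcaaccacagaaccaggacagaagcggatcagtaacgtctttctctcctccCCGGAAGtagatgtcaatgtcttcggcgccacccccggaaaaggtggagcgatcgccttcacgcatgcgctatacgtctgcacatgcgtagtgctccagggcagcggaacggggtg
Atp5j2, chr5:145191492-145191791, minus strand: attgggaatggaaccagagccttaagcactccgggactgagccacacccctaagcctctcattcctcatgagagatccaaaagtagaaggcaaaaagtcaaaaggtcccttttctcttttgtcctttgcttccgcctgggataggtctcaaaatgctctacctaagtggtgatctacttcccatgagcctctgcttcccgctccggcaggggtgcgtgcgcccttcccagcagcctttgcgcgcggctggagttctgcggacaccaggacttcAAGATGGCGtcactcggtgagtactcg
Atp5g2, chr15:102670998-102671297, minus strand: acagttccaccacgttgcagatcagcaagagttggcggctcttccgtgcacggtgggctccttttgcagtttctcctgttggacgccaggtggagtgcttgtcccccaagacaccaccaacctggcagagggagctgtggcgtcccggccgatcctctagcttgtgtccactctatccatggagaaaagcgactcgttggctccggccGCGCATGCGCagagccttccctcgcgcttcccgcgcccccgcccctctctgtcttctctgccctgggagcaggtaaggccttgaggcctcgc
Atp5g1, chr11:96075582-96075881, minus strand: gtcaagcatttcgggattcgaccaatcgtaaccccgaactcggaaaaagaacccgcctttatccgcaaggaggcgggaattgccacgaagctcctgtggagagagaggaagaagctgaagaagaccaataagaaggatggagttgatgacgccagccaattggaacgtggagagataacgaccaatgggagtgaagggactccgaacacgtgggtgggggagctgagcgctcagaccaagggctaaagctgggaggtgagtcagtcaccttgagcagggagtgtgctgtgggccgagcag

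Windows were found for 66 of the 82 genes, and both strands were searched. NRF1, a known activator of respiratory genes, had its motif in 15 of the 66 (22.7%), against 11.8% of the 8326 tested genes with a window. The shares for the other motifs were 25.8% against 20.2% for CCGGAAG, 12.1% against 3.65% for AAGGTCA and 9.09% against 3.81% for AAGATGGCG. The palindromic estrogen response element, searched with its fixed letters and free spacer, matched in 0 of the 66 genes and 0 of the 8326, against 0.074% of all 27025 genes with a window. AAGGTCA overlaps part of that element. A match describes letters only.

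The first question was how E2 moved these transcripts in aortas of each genotype. With all arrays, nearly all of them had lower signal with E2. In ERaKO aortas 75 of the 76 genes were lower, with a median change of -0.74 (1.67-fold lower). In ERbKO aortas 71 were lower, with a median of only -0.17 (1.12-fold lower), and in WT aortas 73 were lower, with a median of -0.47 (1.39-fold lower). The ERbKO count was 24 without placebo mouse 1 and 30 without E2 mouse 2. All genes were measured in the same few mice, so these counts are not independent observations. Across all 10260 tested genes the medians were 0.0081, -0.041 and 0.021, and 49.0%, 59.6% and 46.2% of genes were lower. In a whole aorta, fewer cells of a type and less RNA per cell cannot be told apart.

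No single gene of the 76 passed the test that ignored which mice shared a number (limma, all 22 arrays, Benjamini-Hochberg over 20410 probe sets). That test called 0.00975% of all genes in ERaKO, 0.117% in ERbKO and 0.517% in WT aortas. At an unadjusted p under 0.05, 54 of the 76 were lower and 0 higher in ERaKO aortas, where 6.32% of all genes were lower at that limit. The same counts were 0 lower and 0 higher in ERbKO aortas (1.46% of all genes lower) and 28 lower and 0 higher in WT aortas (3.76%).

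E2 and placebo mice of 1 genotype with the same replicate number deviated together, which the fit can take into account with the pair as a block. With that block, 33 of the 76 genes fell with E2 in ERaKO aortas, where 1.81% of all genes did, and 11 fell in WT aortas, where 0.75% did. None passed in ERbKO aortas (0.039% of all genes fell; limma, 0 of the 76 also at an unadjusted p under 0.05 without the block). All 11 called in WT aortas were among the 33 called in ERaKO aortas, which is 100% of the first list and 33.3% of the second. Both lists come from 1 fit in which the genotypes share the estimate of each gene's spread, so they are not independent. The calls changed when a pair was left out. Without any 1 of the 3 ERaKO pairs 0 genes were called in ERaKO aortas. Without pair 1, 2 or 4 of WT only 2 were called in WT aortas, but 33 without pair 5. These counts also moved with pairs of the other genotypes, which share the estimate of the spread. They then ran between 4 and 52 for ERaKO aortas and between 4 and 13 for WT aortas. Leaving out a pair also lowers power, and the part of power or of single pairs in these counts was not tested. Over these fits the median change stayed between -0.88 and -0.64 in ERaKO and between -0.58 and -0.37 in WT aortas.

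Counting arrays alone, every E2 array lay below every placebo array for 62 of the 76 genes in ERaKO aortas, against 10.9% of all genes. The same held for 0 of the 76 in ERbKO aortas (5.9% of all genes) and for 3 of the 76 in WT aortas (0.351%), namely Ndufb2, Atp5d and Atp5j2. The E2 array was the lower of the pair in all 3 pairs for 69 genes in ERaKO aortas (21% of all genes) and for 46 in ERbKO aortas (22.2%). It was lower in all 5 pairs for 39 genes in WT aortas (6.22%).

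**Figure D1:**
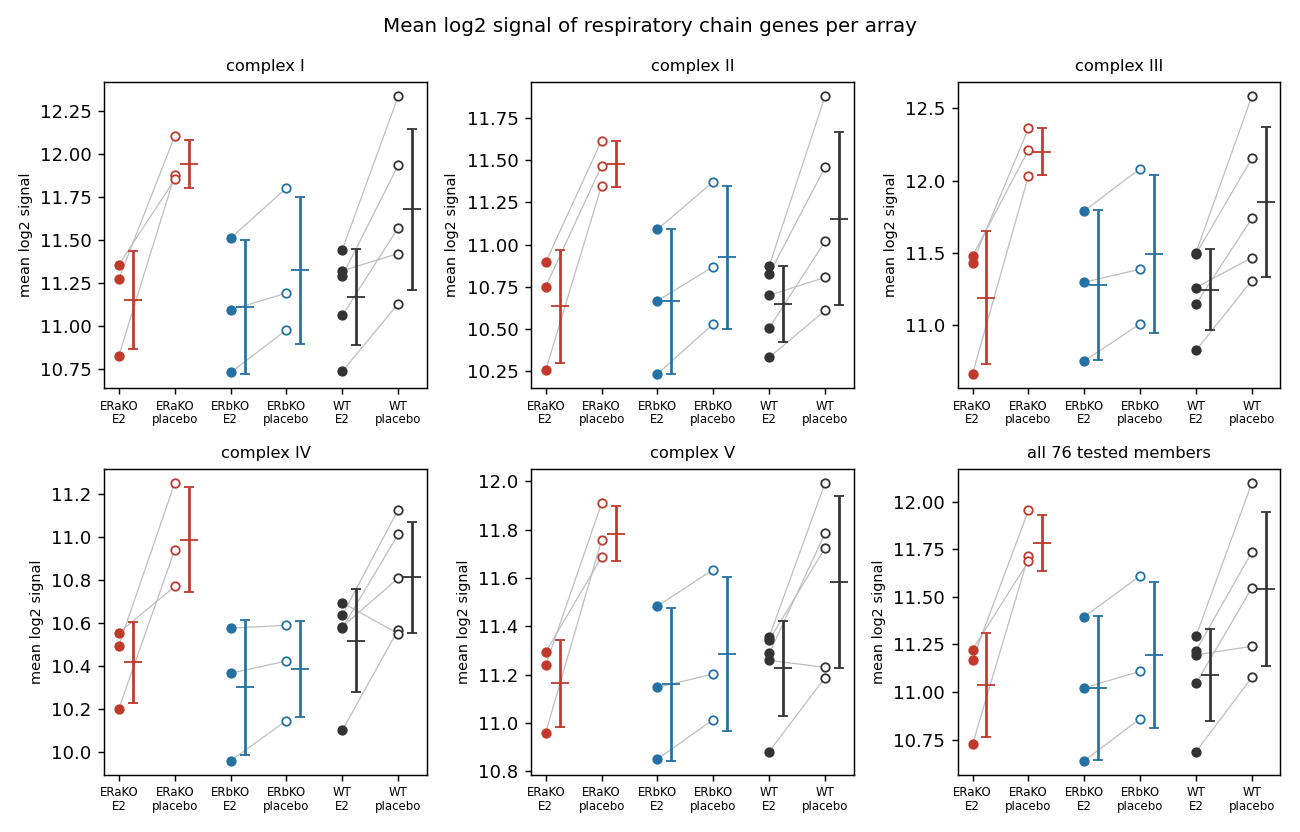
Mean log2 signal per array (y axis) of the genes of complexes I to V and of all 76 tested genes, by group (x axis), with grey lines joining same-numbered E2 and placebo mice and bars giving mean and SD. All 3 ERaKO E2 arrays sit at 10.72 to 11.22 for the 76 genes, below the 3 ERaKO placebo arrays at 11.69 to 11.95, and WT placebo spreads most, from 11.08 to 12.10.

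The mean log2 signal over the 76 genes was 11.17, 10.72 and 11.22 in the ERaKO E2 mice, against 11.95, 11.71 and 11.69 in the ERaKO placebo mice. It was 11.40, 10.64 and 11.02 in the ERbKO E2 mice, against 11.61, 10.86 and 11.11 in the ERbKO placebo mice. In the WT E2 mice it was 11.04, 11.22, 10.69, 11.29 and 11.20, against 11.55, 11.74, 11.08, 12.10 and 11.24 in the WT placebo mice. The arrays separate only in ERaKO aortas. In ERbKO aortas mouse 1 was high and mouse 2 low under both treatments. The paired differences, E2 minus placebo, were -0.78, -0.99 and -0.46 in ERaKO, -0.22, -0.22 and -0.087 in ERbKO, and -0.50, -0.52, -0.39, -0.80 and -0.045 in WT aortas. Every pair was lower with E2, and WT pair 5 hardly differed.

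The spread between mice differed by group. The median SD of a gene was 0.34 in ERaKO E2 and 0.15 in ERaKO placebo, 0.38 in ERbKO E2 and 0.41 in ERbKO placebo, and 0.30 in WT E2 and 0.49 in WT placebo aortas. Over all tested genes it was 0.35, 0.27, 0.21, 0.21, 0.29 and 0.34 in the same order. The respiratory genes thus varied more between mice than genes at large in both ERbKO groups and in WT placebo, and less in ERaKO placebo aortas. Within its group, ERaKO E2 mouse 2 was lowest for 63 of the 76 genes, ERbKO E2 mouse 2 for 72 and WT E2 mouse 3 for 59.

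Complex by complex, the median change with E2 was largest for complex III in ERaKO and WT aortas. It was -1.11 for complex III in ERaKO aortas, where 7 of its 9 genes fell with the block, against -0.17 in ERbKO and -0.63 in WT aortas (4 of 9 fell). For complex I it was -0.77, -0.20 and -0.50, with 15 of 33 genes called in ERaKO and 5 in WT aortas. For complex II it was -0.88, -0.21 and -0.48, with 2 of 4 called in ERaKO and 0 in WT aortas. For complex V it was -0.76, -0.13 and -0.38, with 6 of 17 called in ERaKO and 2 in WT aortas. For complex IV it was -0.66, -0.12 and -0.36, with 3 of 12 called in ERaKO and 0 in WT aortas. Differences between complexes were not tested.

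**Figure D2:**
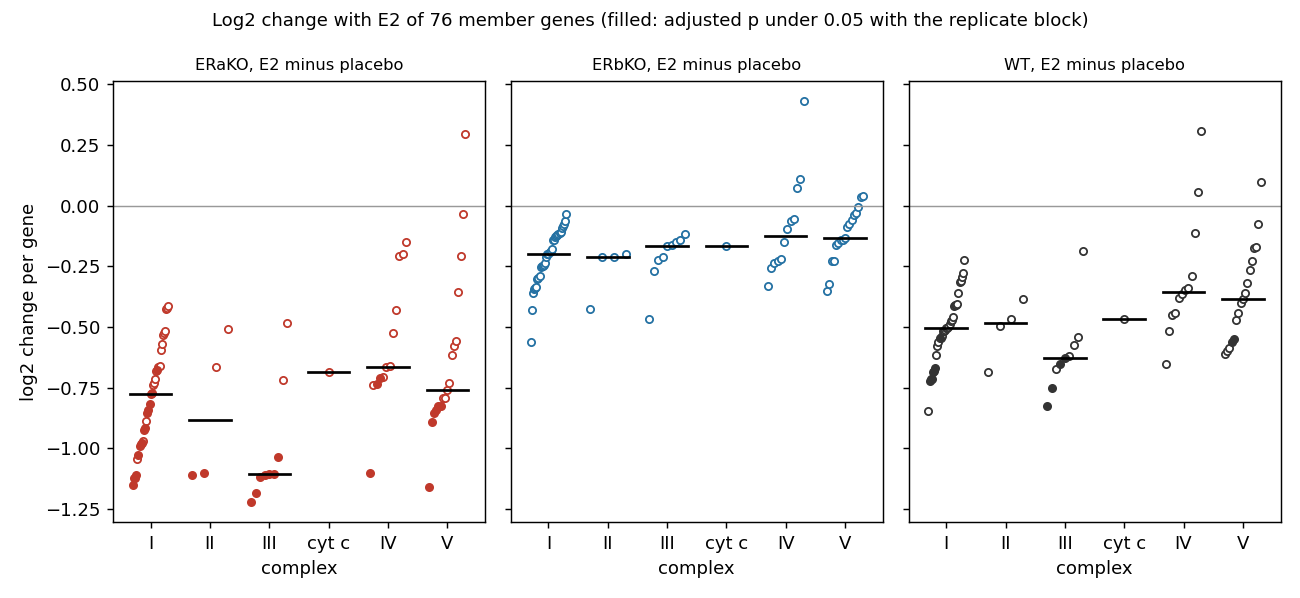
Log2 change with E2 (E2 minus placebo, y axis) of each of the 76 genes, by complex (x axis), in ERaKO, ERbKO and WT aortas, with black lines at the medians. Filled points passed the test with the replicate block: 33 genes in ERaKO, 0 in ERbKO and 11 in WT aortas.

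In complex I, Ndufb2, an accessory subunit of the membrane arm, had the smallest p in WT aortas. Its log2 signal was 10.31, 10.28 and 10.54 in ERaKO E2 mice, against 11.29, 11.20 and 11.19 in ERaKO placebo mice. In WT E2 mice it was 10.05, 10.34, 10.02, 10.51 and 9.90, against 10.79, 11.12, 10.54, 11.23 and 10.70 in WT placebo mice. The E2 and placebo arrays did not overlap in either genotype. The change was -0.85 ± 0.13 in ERaKO (SE with the block, adjusted p = 0.0222 in limma) and -0.71 ± 0.10 in WT aortas (adjusted p = 0.00494), and without the block the adjusted p was 0.646 and 0.078. In ERbKO mice it was 10.63, 10.06 and 10.11 with E2, against 10.89, 10.41 and 10.36 with placebo, so that each pair was lower but the groups overlapped (-0.29 ± 0.22, SE without the block). ERaKO and ERbKO aortas had equal numbers of pairs and so equal SEs within the same fit.

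Ndufs8, an iron-sulphur subunit of the peripheral arm, had signals of 12.35, 12.13 and 12.39 in ERaKO E2 mice, against 13.62, 13.21 and 13.41 in ERaKO placebo mice. The groups lay apart, and the gene fell by 1.12 on the log2 scale (2.18-fold, adjusted p = 0.0222 with the block in limma). In WT E2 mice it was 12.26, 12.80, 12.05, 12.75 and 12.10, against 13.01, 13.50, 12.53, 13.89 and 12.43 in WT placebo mice. These overlapped, but each of the 5 pairs was lower with E2 (-0.68, adjusted p = 0.0252 with the block). Ndufv2, another iron-sulphur subunit, fell by 0.99 in ERaKO and by 0.67 in WT aortas (adjusted p = 0.0261 and 0.0273 with the block in limma). Ndufv1, which binds NADH and the flavin, fell by 0.98 in ERaKO aortas (adjusted p = 0.0485) and was at -0.71 in WT aortas (0.057). Ndufs1, the large iron-sulphur subunit, fell by 1.15 in ERaKO aortas, just inside the limit (adjusted p = 0.0499), and was at -0.62 in WT aortas. Ndufa4 carries a complex I name and is counted there, but is now assigned to complex IV. It had the lowest value of the group in WT aortas, -0.85 (adjusted p = 0.056 with the block).

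All 33 genes counted with complex I had values below 0 in each of the 3 genotypes. They ran from -1.15 to -0.41 in ERaKO, from -0.56 to -0.03 in ERbKO and from -0.85 to -0.22 in WT aortas. The value of -0.85 was that of Ndufa4. The smallest shifts were those of Ndufb11 in ERaKO and ERbKO and of Ndufa2 in WT aortas.

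In complex II, Sdha holds the flavin that takes electrons from succinate and Sdhb the iron-sulphur centres that pass them on. Sdhb was at 11.48, 10.77 and 11.66 in ERaKO E2 mice, against 12.47, 12.38 and 12.36 in ERaKO placebo mice. The groups lay apart, mouse 2 with E2 being the lowest. Both genes fell in ERaKO aortas, Sdha by 1.11 and Sdhb by 1.10 (adjusted p = 0.0333 and 0.0315 with the block in limma). In WT aortas Sdhb was at -0.69 (1.61-fold lower) and stayed just outside the limit (adjusted p = 0.0512), and Sdha was at -0.47. The membrane anchor genes Sdhc and Sdhd passed in no genotype.

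In complex III, the small subunit Uqcr11 was at 10.64, 9.85 and 10.80 in ERaKO E2 mice, against 11.71, 11.27 and 11.61 in ERaKO placebo mice. In WT E2 mice it was at 10.40, 10.84, 9.43, 10.63 and 10.01, against 11.09, 11.37, 10.29, 11.65 and 11.02 in WT placebo mice. The arrays separated in ERaKO aortas and overlapped in WT aortas, where WT E2 mouse 3 was the lowest, yet every pair was lower with E2. It fell by 1.10 ± 0.15 in ERaKO and by 0.82 ± 0.12 in WT aortas (SE with the block, adjusted p = 0.0222 and 0.00618 in limma). In ERbKO mice its signals were 11.09, 9.72 and 10.03 with E2, against 11.35, 9.91 and 10.21 with placebo. There the difference between mice 1 and 2 was far larger than the change of -0.21.

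Cyc1, the cytochrome c1 that hands electrons to cytochrome c, was at 11.52, 11.19 and 12.03 in ERaKO E2 mice, against 12.58, 12.56 and 12.71 in ERaKO placebo mice. It fell by 1.04 in ERaKO and by 0.65 in WT aortas (adjusted p = 0.0261 and 0.0383 with the block in limma). The small subunits Uqcrq and Uqcr10 also fell in both genotypes, Uqcrq by 1.22 in ERaKO and 0.75 in WT aortas and Uqcr10 by 1.18 and 0.63. Uqcrfs1, the Rieske iron-sulphur protein, and Uqcrc1, a core protein, fell by 1.12 and 1.11 in ERaKO aortas. In WT aortas they were at -0.54 and -0.62, outside the limit. Uqcrb, with bright signals of 12.95 to 14.21, had the smallest shift of the complex in each genotype.

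Cycs, the mobile carrier between complexes III and IV, was at 13.255, 12.003 and 13.171 in ERaKO E2 mice, against 13.801, 13.356 and 13.324 in ERaKO placebo mice. The groups lay narrowly apart, mouse 2 with E2 being far the lowest, but the gene passed in no genotype. Its values were -0.68 ± 0.32 in ERaKO, -0.17 ± 0.32 in ERbKO and -0.46 ± 0.25 in WT aortas (SE without the block).

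In complex IV, Cox4i1, the common isoform of a regulatory subunit, was at 13.03, 12.78 and 12.96 in ERaKO E2 mice, against 13.72, 13.64 and 13.54 in ERaKO placebo mice. It fell by 0.71 ± 0.13 in ERaKO aortas (adjusted p = 0.0295 with the block in limma) and was at -0.29 ± 0.10 in WT aortas. Cox8a, the common form of the smallest subunit, was at 9.35, 8.90 and 9.88 in ERaKO E2 mice, against 10.56, 10.29 and 10.59 in ERaKO placebo mice. It fell by 1.10 there, 2.15-fold (adjusted p = 0.0296 with the block), and was at -0.65 in WT aortas, just outside the limit (0.0544). Cox6b1, on the outer face of the membrane, was the third gene called in ERaKO aortas (-0.73, adjusted p = 0.0414). Cox5b, a zinc-binding subunit, was at -0.71 in ERaKO and -0.38 in WT aortas and passed in neither.

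Complex IV has subunits with tissue isoforms. Cox6b2, the testis form, was dim, at 5.37, 5.92 and 6.14 in ERaKO E2 mice, against 5.92, 6.14 and 5.81 in ERaKO placebo mice. It was at 5.57, 5.88 and 6.36 in ERbKO E2 mice, against 5.23, 5.33 and 5.96 in ERbKO placebo mice. Its values were -0.15 in ERaKO, 0.43 in ERbKO and 0.31 in WT aortas, and each ERbKO and WT pair was higher with E2, but it passed in no genotype. Cox6a2, the heart and muscle form, was at 10.02 in WT placebo mouse 1, the mouse with Acta1 at 10.09, and at 7.19 or less elsewhere, and it passed in no genotype. Cox7a2l, a factor that joins complexes III and IV, had values of -0.20, 0.07 and 0.06. The lung form Cox4i2, the testis forms Cox7b2 and Cox8c and the hypoxia-induced Ndufa4l2 had no value above 2.75 on any array, and Ndufb1 and Ndufb4 also stayed below the filter, with highest signals of 3.99 and 2.17. Cox7a1 and Cox8b, the muscle and brown fat isoforms left out by the rule, had values of -1.55 and -1.43 in ERaKO and both fell there with the block (adjusted p = 0.0222 and 0.0342). Cox7a1 also fell in WT aortas, by 1.16 (adjusted p = 0.00695).

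**Figure D3:**
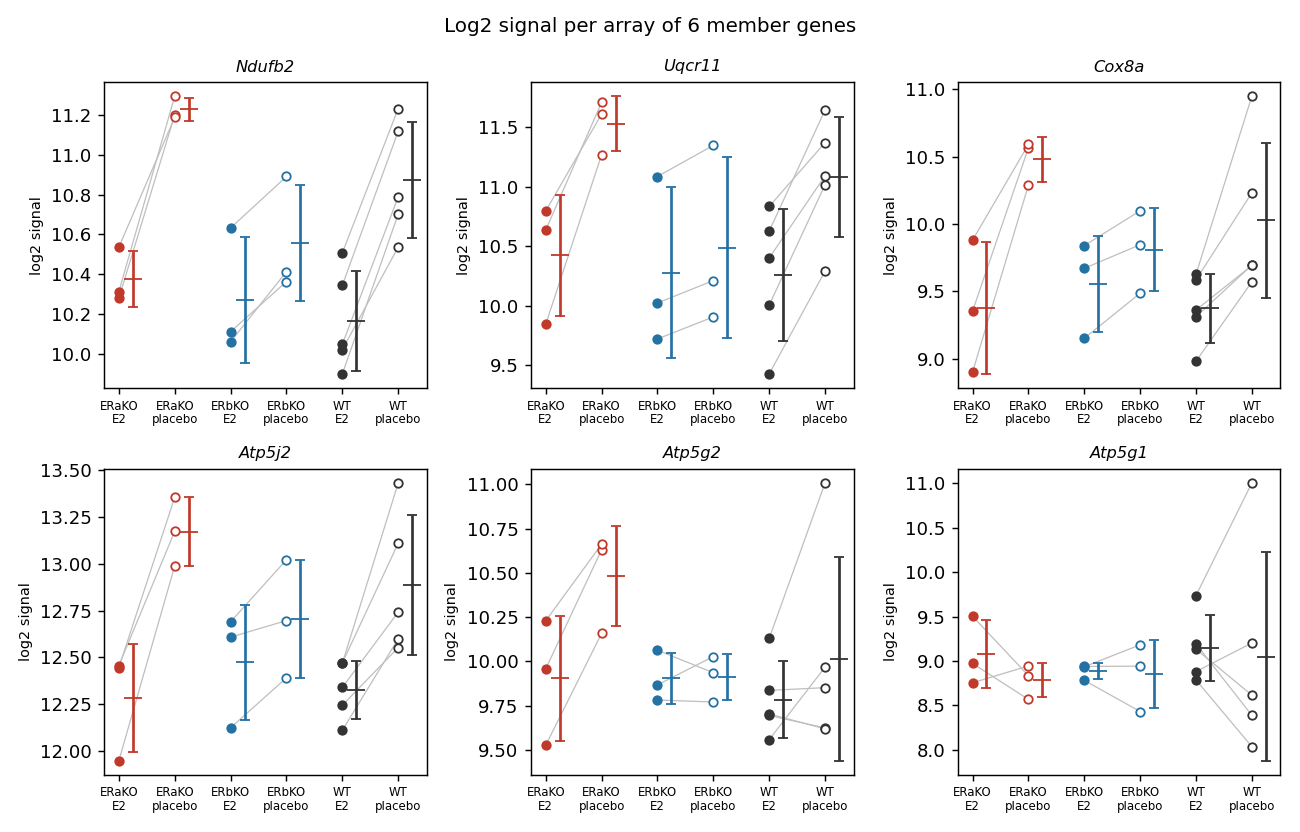
Log2 signal per array (y axis) of 6 genes by group (x axis), filled points for E2 and open points for placebo, with grey lines joining same-numbered mice and bars giving mean and SD. Ndufb2 and Atp5j2 separate E2 from placebo in ERaKO and WT aortas, whereas Atp5g1 overlaps in every genotype and is highest, at 11.01, in WT placebo mouse 1.

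In ATP synthase, Atp5j2 encodes a small subunit of the membrane part. Its signals were 12.45, 11.95 and 12.46 in ERaKO E2 mice, against 13.36, 12.99 and 13.17 in ERaKO placebo mice. In WT E2 mice they were 12.34, 12.47, 12.11, 12.47 and 12.24, against 12.74, 13.11, 12.60, 13.43 and 12.55 in WT placebo mice. The groups lay apart in both genotypes, narrowly so in WT aortas. The gene fell by 0.89 ± 0.15 in ERaKO and by 0.56 ± 0.12 in WT aortas (SE with the block, adjusted p = 0.0261 and 0.0374 in limma). In ERbKO mice it was at 12.69, 12.12 and 12.61 with E2, against 13.02, 12.39 and 12.70 with placebo, a difference of -0.23 with overlapping groups.

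Atp5o, in the stalk that holds the catalytic head still, had the lowest value of the complex in ERaKO and in WT aortas. It fell by 1.16 in ERaKO aortas, 2.23-fold (adjusted p = 0.039 with the block in limma), and was at -0.61 in WT aortas. Atp5d, in the rotating central stalk, was at 10.45, 10.19 and 10.77 in ERaKO E2 mice, against 11.38, 11.22 and 11.29 in ERaKO placebo mice. It fell by 0.83 there (adjusted p = 0.0423 with the block), and in WT aortas it was at -0.59, outside the limit (0.055) although its arrays did not overlap. The catalytic subunit Atp5b was at -0.73 in ERaKO, -0.04 in ERbKO and -0.40 in WT aortas and passed in none. Atp5a1, the other subunit of the catalytic head, was at -0.76, -0.13 and -0.38. One further probe set of Atp5a1, with a mean signal of only 5.73, had a value of 0.58 in WT aortas.

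The 3 genes of the proton-carrying c ring encode the same mature protein and are controlled by separate promoters. Atp5g1 was at 8.75, 9.50 and 8.97 in ERaKO E2 mice, against 8.94, 8.83 and 8.57 in ERaKO placebo mice. In WT E2 mice it was at 9.74, 9.19, 8.88, 8.79 and 9.13, against 11.01, 8.39, 9.20, 8.03 and 8.62 in WT placebo mice. The groups overlapped, and WT placebo mouse 4, the highest array for most respiratory genes, was the lowest for Atp5g1, with mouse 1 the highest. Its values were 0.29 ± 0.49 in ERaKO, 0.03 ± 0.49 in ERbKO and 0.10 ± 0.38 in WT aortas (SE without the block), and it was the only one of the 76 genes above 0 in ERaKO aortas. Atp5g2 was at 9.53, 9.96 and 10.23 in ERaKO E2 mice, against 10.16, 10.63 and 10.66 in ERaKO placebo mice, with values of -0.58, -0.01 and -0.23 in the 3 genotypes. Atp5g3 was at -0.21, -0.03 and -0.07, and Atp5j, in the peripheral stalk, at -0.03, -0.08 and -0.17. None of the 4 passed in any genotype.

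Several probe sets of 1 gene mostly ran the same way. Of 45 genes with more than 1 tested probe set, all probe sets were lower with E2 for 43 in ERaKO, 37 in ERbKO and 41 in WT aortas, and they disagreed in sign for 2, 7 and 4. Of the 76 representative probe sets, 11 had the suffix _s_at and 8 the suffix _x_at, which mark probes that can pick up other transcripts. Respiratory genes have many processed pseudogenes, and their part in the signal was not tested.

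The next comparison was whether the E2 effect itself differed between genotypes. The difference of E2 effects, ERaKO minus WT, was below 0 for 73 of the 76 genes, with a median of -0.30, but none passed (limma, 0.0975% of all genes called; 0 of the 76 at an unadjusted p under 0.05, and 0 with the block). The difference ERbKO minus WT was above 0 for 74 genes, with a median of 0.25, and again none passed (limma, 0% of all genes called; 0 of the 76 at an unadjusted p under 0.05, and 0 with the block). The median SE of 1 gene's difference was 0.39, so the data do not show that the E2 effect differed between genotypes, nor that it was alike. Leaving out single arrays moved the median of ERaKO minus WT between -0.44 and -0.15 and that of ERbKO minus WT between 0.080 and 0.50. The smallest p for ERaKO minus WT was that of Cox4i1, at -0.42 ± 0.27, and for ERbKO minus WT that of Atp5d, at 0.53 ± 0.29.

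The knockouts were also compared with WT aortas under the same pellet. With placebo, the median of the 76 genes was 0.29 in ERaKO against WT aortas, where the median of all tested genes was 0.12, and -0.32 in ERbKO against WT aortas, where it was -0.025. Array medians set equal gave 0.14 for ERaKO, and leaving out single arrays gave 0.16 to 0.43 for ERaKO and -0.56 to -0.14 for ERbKO. No gene passed in either (limma, 0.00975% and 0% of all genes called). At an unadjusted p under 0.05, 1 gene was higher in ERaKO aortas (Cox7a2l, 0.33 ± 0.15; 2.86% of all genes were higher) and 1 was lower in ERbKO aortas (Ndufa5, -0.69 ± 0.29; 1.81% were lower). With E2, the median was -0.035 in ERaKO and -0.034 in ERbKO against WT aortas, and no gene passed, also at an unadjusted p under 0.05 (limma, 0.283% and 0% of all genes called). These comparisons share arrays with those of E2 and placebo.

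Genes that build or feed the chain were followed as lists. Of 42 tested assembly factors, 42 had values below 0 in ERaKO, 33 in ERbKO and 39 in WT aortas, with medians of -0.52, -0.17 and -0.29. Of all genes 49.0%, 59.6% and 46.2% were lower. With the block 3 fell in ERaKO aortas, where 1.81% of all genes did: Foxred1 (-1.25) and Nubpl (-1.47) for complex I and Atpaf2 (-1.16) for ATP synthase. For coenzyme Q synthesis, which supplies the carrier between complexes I, II and III, the medians over 12 genes were -0.98, -0.20 and -0.52. Coq8b (-1.07), Coq9 (-1.25) and Coq5 (-0.999) fell in ERaKO aortas with the block. Of 16 shuttles of the inner membrane, with medians of -0.46, -0.086 and -0.27, Etfa and Etfb, which bring electrons from fatty acid oxidation, fell in ERaKO aortas with the block (-1.03 and -1.14). The WT medians without WT placebo 4 were -0.13 for assembly factors and -0.27 for coenzyme Q synthesis. Without ERbKO placebo 1 the ERbKO medians of these 3 lists were 0.016, 0.018 and 0.080.

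Of 26 regulators of respiratory genes none passed in any genotype, with or without the block, and the medians were -0.24, -0.11 and -0.14. At an unadjusted p under 0.05 (limma without the block), 1 was lower in ERaKO, 1 in ERbKO and 1 in WT aortas. Of all genes 6.32%, 1.46% and 3.76% were lower at that limit. In WT aortas 1 regulator was higher, where 540 of all 10260 genes were. Ppargc1a, a coactivator of mitochondrial genes, was at -0.68, -0.35 and -1.13, and Esrra, its partner receptor, at -0.19, -0.25 and -0.47. The Esrra values and the ERbKO value of Ppargc1a rested on single arrays. In WT aortas the paired differences of Ppargc1a were -1.67, -1.25, -0.96, -1.65 and -0.12. Esrra was at 7.66 in WT placebo 4 and at 5.82 to 5.93 in the other WT placebo mice, and without that array its WT value was -0.11. Without placebo mouse 1 of each knockout it was 0.0041 in ERaKO and -0.034 in ERbKO aortas, and the ERbKO value of Ppargc1a was 0.41 without E2 mouse 2. Of the subunits made in the mitochondrion itself, ND5 alone had a probe set under 1 symbol. Its values were -0.26, -0.15 and -0.11 (0.079 in ERaKO aortas without E2 mouse 2), against medians of -0.77, -0.20 and -0.50 for the nuclear genes of the same complex.

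Markers of fat were high and low in many of the same mice as the respiratory genes. Over 11 tested brown adipocyte markers the median change with E2 was -1.34 in ERaKO, -0.35 in ERbKO and -1.04 in WT aortas. Of the 11, 9, 8 and 11 had values below 0, against 49.0%, 59.6% and 46.2% of all genes. With the block 3 fell in ERaKO (Cidea, Cox7a1, Cox8b) and 3 in WT aortas (Fabp3, Cidea, Cox7a1), where 1.81% and 0.75% of all genes fell. Cox7a1 and Cox8b are themselves the complex IV isoforms left out by the rule. The mean signal of the 11 markers was 8.64 to 9.84 in ERaKO E2 and 10.29 to 10.64 in ERaKO placebo aortas. It was 8.51 to 10.07 in ERbKO E2 and 8.79 to 10.48 in ERbKO placebo aortas, and 8.64 to 9.88 in WT E2 and 9.59 to 11.28 in WT placebo aortas. Over 8 tested white adipocyte markers the medians were -1.07, -0.27 and -0.60, and 2 fell in ERaKO and 1 in WT aortas with the block. The paired differences of Ucp1 were -0.60, -2.09 and -0.72 in ERaKO, -0.18, -0.39 and 0.17 in ERbKO, and -0.92, -0.63, -0.93, -0.95 and 0.03 in WT aortas. In WT pair 5, where the respiratory genes hardly differed, the brown adipocyte mean differed by -0.028 and Ucp1 by 0.03, but Cox7a1 by -0.84 and Cox8b by -0.58. ERaKO pair 2 had the lowest difference of its genotype for the respiratory genes and for Ucp1. Without WT placebo 4 the WT medians were -0.63 for brown and -0.28 for white adipocyte markers, and without ERaKO E2 2 the ERaKO median for brown was -0.82. The ERbKO medians turned to 0.10 and 0.054 without E2 mouse 2. The part of fat cells in the changes of the respiratory genes was not tested.

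The other marker lists did not all run the same way. The 8 smooth muscle markers had medians of 0.29 in ERaKO, -0.096 in ERbKO and 0.30 in WT aortas, and none passed. Their mean was 11.48 to 12.19 in ERaKO E2 and 11.20 to 11.96 in ERaKO placebo aortas, 11.38 to 11.74 in ERbKO E2 and 11.46 to 11.70 in ERbKO placebo aortas, and 11.41 to 11.66 in WT E2 and 10.70 to 11.66 in WT placebo aortas. Of 6 endothelial markers, with medians of -0.50, 0.012 and 0.40, 6 were lower with E2 in ERaKO, 3 in ERbKO and 2 in WT aortas. The shares over all genes were 49.0%, 59.6% and 46.2%. Only Vwf, the clotting factor carrier made by endothelium, passed, where 0.117% of all genes were called in ERbKO and 0.517% in WT aortas. It rose by 1.33 in ERbKO and by 1.93 in WT aortas (adjusted p = 0.0173 and 3.61e-06 in limma) and was at -0.27 in ERaKO aortas. The 4 tested macrophage markers (medians -0.0059, 0.30 and 0.16) and the 4 tested striated muscle markers (medians -0.55, -0.22 and -0.73) held no gene that passed, and 10 of 14 striated muscle markers stayed below the filter. The striated muscle mean was 11.19 in WT placebo 1 and 5.38 to 6.22 in the other WT placebo mice, and without that array the WT median was 0.36. Without ERaKO placebo 1 the ERaKO median was 0.30.

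**Figure D4:**
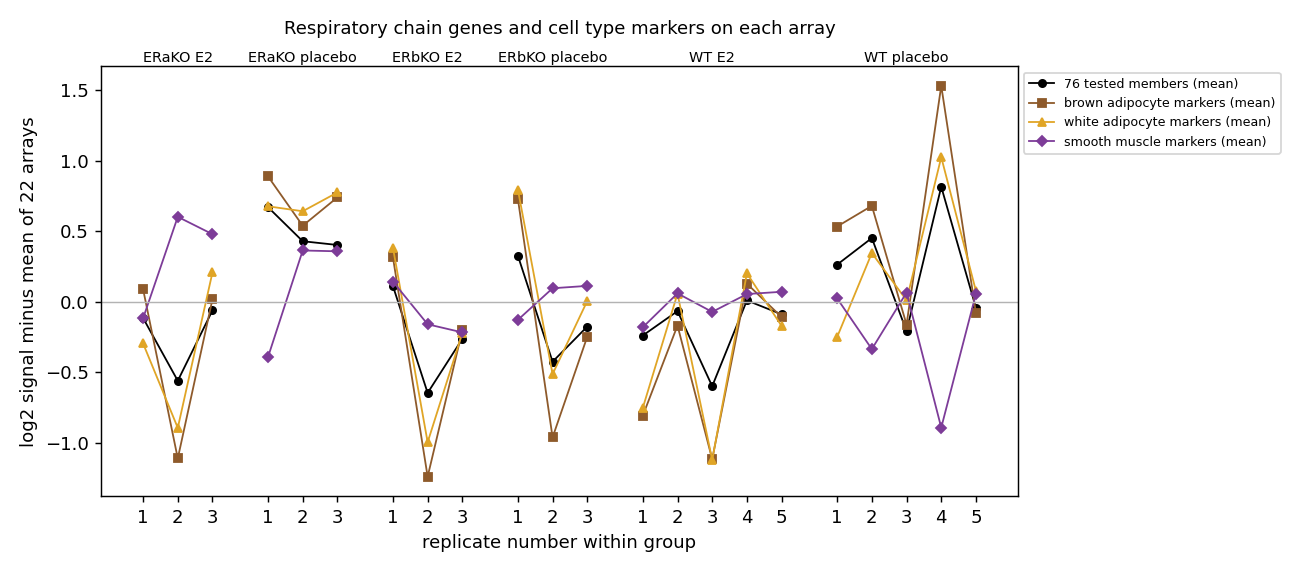
Log2 signal minus the mean of the 22 arrays (y axis) of the 76 respiratory genes and of brown adipocyte, white adipocyte and smooth muscle markers (each a mean over genes), for every mouse by group (x axis). The respiratory genes and the fat markers share their high arrays (WT placebo 4, ERaKO placebo) and low arrays (ERbKO E2 2, ERaKO E2 2, WT E2 3), and the smooth muscle mean is lowest, at 10.70, in WT placebo 4.

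Single arrays moved these counts. Without WT placebo 4 the median of the 76 genes in WT aortas was -0.32, with 73 lower and 8 lower at an unadjusted p under 0.05. Without WT E2 3 it was -0.33, with 72 lower and 13 at that limit. The count at that limit was 15 without WT E2 1, 13 without WT placebo 2 and 54 without WT placebo 3, against 28 with all arrays. In ERaKO aortas the median was -0.63 without E2 mouse 2, with 74 lower and 22 at that limit, and the count there was 30 without placebo mouse 1, against 54 with all arrays. In ERbKO aortas the sign itself rested on single arrays: the median was 0.02 without E2 mouse 2, with 30 of 76 genes lower, and 0.036 without placebo mouse 1, with 24 lower.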

How the data were processed

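The authors deposited log2 signals of 22 arrays, normalized with GCRMA per the submitters' processing notes, and the authors' tables of log2 fold changes and unadjusted limma p-values, per the file headers. Only the signals were analysed here, and the deposited tables served to check the mapping of arrays to groups. The members and lists were chosen with earlier results of these data known. After removal of 64 control probe sets, the 20410 probe sets with a log2 signal over 4 on at least 3 arrays were fitted with limma 3.58.1 in R 4.3.3, using 1 mean for each of the 6 groups, 9 contrasts and Benjamini-Hochberg adjustment over all tested probe sets. The threshold was an adjusted p under 0.05. A gene was represented by its tested probe set of highest mean signal, which gave 10260 named genes. The procedure was tested on simulated data with independent noise on every array. That test therefore says nothing about same-numbered mice that deviate together.

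Deviations from the group means correlated at 0.246 to 0.661 between E2 and placebo arrays with the same replicate number in the labels, over 0.1 in all 11 pairs, so values with the pair as a block are given beside those without it. Nothing in the labels says that same-numbered mice share a litter or day. A naming rule picked the 3 genes of smallest p per complex in each E2 comparison and each difference of E2 effects. It also picked the 2 of smallest p in each genotype comparison, the core and carrier subunits, the isoforms, and the 2 of smallest p in each list. Not all genes it picked are named here, for example Ndufa8, Ndufb8 and Ndufs3 are not described. Further genes named here (Ndufb11, Ndufa2, Uqcrb and the called genes outside that rule) were chosen after their values were seen. Alternatives were the filter (none, or over 6), array medians set equal, quantile normalization, array weights, a variance trend, the probe set of highest variance, the block and leaving out each array. Leaving out arrays for the other gene lists, and pairs under the block, was chosen after seeing the data.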

Additional observations from a re-analysis of the deposited data

Results flagged for a closer look

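Of 112 sets of 5 WT arrays examined, 8 held an array far from the other 4, where chance flags about 1 in 20. WT E2 3 was far below the others for Atp5pb (11.85, nearest 12.40), Atp5mpl (9.87, nearest 10.32) and Cox6c (12.05, nearest 12.48), and for the means of complex IV (10.10, nearest 10.58) and complex V (10.88, nearest 11.26). It was far above them for Cox6b2 (6.31, nearest 5.89). WT placebo 4 was far above the others for Atp5g2 (11.01, nearest 9.97) and far below them for Cox6b2 (5.04, nearest 5.61).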

How the results depend on the processing

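The counts of called genes depended on the block more than on any other setting run. With the replicate block 33 genes were called in ERaKO and 11 in WT aortas, against 0 without it, and 0 in the other 7 contrasts. In WT aortas 1 gene was called with array medians set equal and 1 with array weights. Leaving out 1 pair under the block, an alternative chosen after seeing the data, gave 0 calls in ERaKO aortas without any ERaKO pair, 4, 6 and 12 without ERbKO pair 1, 2 and 3, and 18, 13, 14, 52 and 45 without WT pair 1 to 5. In WT aortas it gave 5, 11 and 13 calls without ERaKO pair 1, 2 and 3, 4, 5 and 5 without ERbKO pair 1, 2 and 3, and 2, 2, 3, 2 and 33 without WT pair 1 to 5, and in ERbKO aortas 0 throughout. Same-numbered knockout and WT arrays correlated at -0.337 to 0.395, over 0.1 in 5 of 12 pairs, and a block on them called 0 genes.

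Under the settings that keep every array, the median change was -0.82 to -0.68 in ERaKO, -0.20 to -0.13 in ERbKO and -0.54 to -0.40 in WT aortas. Without single arrays it was -0.84 to -0.63, -0.36 to 0.036 and -0.62 to -0.32. The medians of ERaKO and ERbKO against WT aortas with E2 changed sign over the settings (-0.14 to 0.074 and -0.087 to 0.076). Among the 50 tested genes that the naming rule picked, these signs turned with every array kept, and the cause was not tested. In ERaKO aortas Atp5j was at 0.013 with array medians set equal and 0.020 with quantile normalization, and Cox7c at 0.019 with array weights. In ERbKO aortas Atp5g2 was at 0.015 with equal medians and 0.019 with quantile normalization, Atp5g3 at 0.0077 with quantile normalization and 0.015 with array weights, and with array weights Atp5g1 at -0.023 and Cox6a2 at -0.019. In WT aortas Atp5a1 was at 0.58 and Cox7a2l at -0.048 by their probe sets of highest variance, and Atp5g1 at -0.28 with array weights. Without single arrays the sign turned for 5 genes in ERaKO aortas (Atp5g3 -0.35 to 0.038, Atp5j -0.12 to 0.069, Cox6a2 -1.42 to 0.45, Cox6b2 -0.32 to 0.072 and Cox7c -0.59 to 0.15). It turned for 35 of the 50 in ERbKO aortas (Atp5a1 -0.38 to 0.13, Atp5b -0.25 to 0.22, Atp5c1 -0.12 to 0.17, Atp5d -0.19 to 0.085, Atp5e -0.34 to 0.00055, Atp5g1 -0.18 to 0.20, Atp5g2 -0.087 to 0.054, Atp5g3 -0.091 to 0.018, Atp5j -0.19 to 0.032, Atp5l -0.70 to 0.040, Atp5mpl -0.30 to 0.070, Atp5o -0.42 to 0.16, Cox4i1 -0.22 to 0.10, Cox5a -0.43 to 0.060, Cox5b -0.25 to 0.13, Cox6a1 -0.31 to 0.012, Cox6a2 -0.13 to 0.24, Cox6b1 -0.48 to 0.032, Cox6c -0.26 to 0.097, Cyc1 -0.41 to 0.095, Cycs -0.42 to 0.053, Ndufa4 -0.41 to 0.098, Ndufa5 -0.47 to 0.041, Ndufa7 -0.29 to 0.063, Ndufb10 -0.27 to 0.10, Ndufb9 -0.39 to 0.044, Ndufs1 -0.64 to 0.032, Ndufv1 -0.61 to 0.10, Sdha -0.53 to 0.14, Sdhb -0.42 to 0.091, Uqcr10 -0.59 to 0.055, Uqcr11 -0.62 to 0.22, Uqcrc1 -0.34 to 0.13, Uqcrfs1 -0.51 to 0.12 and Uqcrh -0.33 to 0.088). It turned for 5 in WT aortas (Atp5g1 -0.16 to 0.59, Atp5g2 -0.33 to 0.019, Atp5g3 -0.15 to 0.090, Cox6a1 -0.22 to 0.0028 and Cox6a2 -1.10 to 0.52).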
